A study of Sus scrofa with 6 samples.

Results

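NEBL, MYOT, FHL1, FHL2, XIRP1 and DES are 6 genes of the cardiac Z-disc, of LIM proteins, of cell junctions and of desmin filaments. They were found on the array as every probe set whose single gene symbol in the platform annotation was one of these names, which gave 7 probe sets of 23999, since DES has 2 of them and each other gene has 1. The 6 genes are among 6765 that the annotation names by a single symbol. The genes were chosen by their measured intensities in these same arrays, from the comparisons of animals with mitral regurgitation against controls and of treated against untreated animals, so their values in those comparisons are a description and carry no test.

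The animals were 6 male miniature pigs of the Lanyu breed aged 18 months, whose left atrial RNA was measured with 1 Affymetrix porcine array for each pig and 2 pigs in each of 3 groups. NC pigs were normal controls for which the labels record no operation. In MR pigs mitral regurgitation had been made surgically by a hole of 2.8 mm in the posterior mitral leaflet, and the animals were killed 12 months later. MRV pigs carried the same lesion for the same time and in addition received valsartan, a blocker of the angiotensin II receptor of type I, in a daily dose of 3.43 mg/kg/day from 1 week ahead of the operation. MR and MRV thus share lesion and operation. NC lacks the lesion and has no operation on record, so the lesion cannot be told apart from the operation in any comparison with NC.

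The Z-disc is the plate that borders each sarcomere, where actin filaments of opposite polarity are anchored by alpha-actinin and where titin ends. Adaptor proteins at this plate, many of them built from LIM domains (zinc-binding modules that hold other proteins), link the filaments to signalling molecules, and desmin filaments tie neighbouring Z-discs to each other and to the cell membrane. In heart muscle several of these genes respond to mechanical load.

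The array medians lay between 90.1 and 93.1 intensity units. NC1 stood apart: it correlated with NC2 at r = 0.980 across probe sets and more closely with MR1 (r = 0.988), while the MR pair and the MRV pair reached 0.990 and 0.991, and NC2 was closest to MRV2 (r = 0.992). Of the 8 atrial muscle markers listed, 4 had a probe set. The natriuretic peptide gene NPPA read from 18414 to 20170 and the atrial light chain gene MYL4 from 21034 to 21842 on all 6 arrays. SLN read 8660 in NC1 and 10033 in NC2, 5369 in MR1 and 9876.5 in MR2, and 8949 in MRV1 and 8530 in MRV2. KCNJ3 lay below the filter on dim probe sets. The ventricular light chain gene MYL2 read 203 in NC1 and 325 in NC2, 10693 in MR1 and 2318 in MR2, and 152 in MRV1 and 954 in MRV2. Summed over the 4 ventricular markers measured, of 5 listed, intensity ranged from 29473 to 32029 in NC, from 34386 to 42413 in MR and from 29846 to 29944 in MRV. MYH7 made up most of this sum, at 20478 to 21652 over the 6 arrays. The higher sum in MR came largely from MYL2. The 3 leukocyte markers measured all lay below the filter on dim probe sets, at a summed intensity of 94.6 to 132. The 3' probe set of a first actin control pair read from 13135 to 15543 in NC and MR and 7859 and 10977 in MRV. Its ratio to the 5' probe set is a measure that goes up with RNA degradation. This ratio was 1.61 in NC1 and 1.91 in NC2, 1.44 in MR1 and 1.70 in MR2, 2.30 in MRV1 and 1.87 in MRV2. A second actin pair did not share this order, with ratios of 9.72 in NC1 and 6.96 in NC2, 8.10 in MR1 and 9.11 in MR2, and 6.46 in MRV1 and 11.6 in MRV2. The 3' to 5' ratios of the corresponding GAPDH pairs ranged from 1.53 to 1.59 and from 1.17 to 1.34 over the 6 arrays.

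Against controls, the regurgitant atria differed most in NEBL, which was higher, while MYOT, FHL1 and DES were higher by less and XIRP1 and FHL2 were lower. In the atria of valsartan-treated animals FHL1, MYOT, XIRP1 and DES were lower than in every array of both other groups. They stood at 0.521, 0.560, 0.744 and 0.885 times the mean of untreated regurgitation. NEBL lay between the other groups, and FHL2, at 0.984 times that mean, overlapped with both. In whole-tissue RNA, fewer cells of a type and less RNA per cell cannot be told apart, and this holds for every value here.

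**Figure D1:**
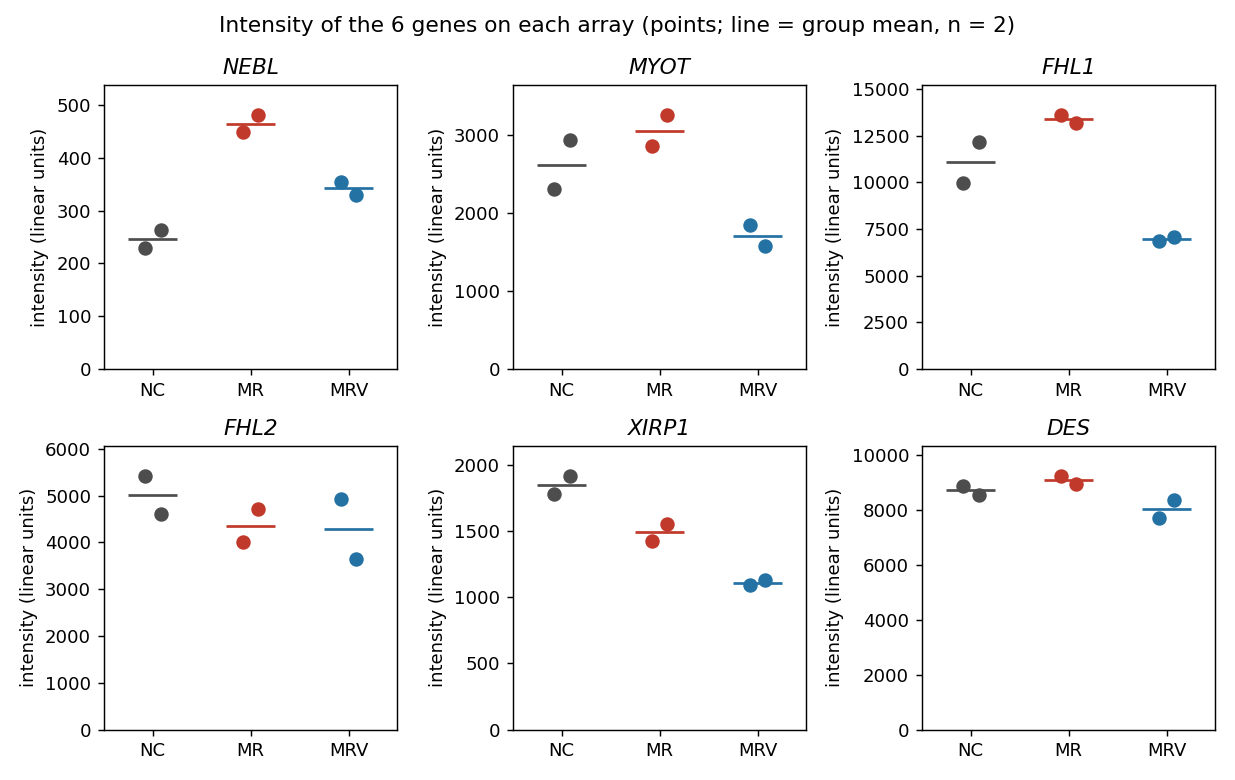
Intensity (linear units, axes from 0) of each of the 6 genes on the single arrays of groups NC, MR and MRV; points are arrays and lines are means of 2. NEBL is lowest in both NC arrays. FHL1, MYOT, XIRP1 and DES are lowest in both MRV arrays, and the FHL2 arrays of all groups overlap.

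NEBL encodes nebulette, a cardiac relative of nebulin that binds actin at the Z-disc. Its probe set read 229 in NC1 and 263.6 in NC2, 449.7 in MR1 and 480.9 in MR2, and 354.5 in MRV1 and 330.7 in MRV2. The 3 groups did not overlap at any point, with NC lowest, MR highest and MRV between them. The group means were 246 ± 24.5 in NC, 465 ± 22.1 in MR and 343 ± 16.8 in MRV (SD, n = 2 for these and all later means), so MR was 1.89 times NC and MRV was 1.39 times NC. All log2 differences were computed on log2(intensity + 16), a scale that understates differences of dim probe sets, with moderated standard errors (SE) from a limma fit to the 6 arrays. NEBL differed by 0.88 (SE 0.12) between MR and NC, a value larger than that of 99.7% of the 14400 probe sets tested, and by -0.42 (SE 0.12) between MRV and MR. Without NC1 the difference between MR and NC was 0.78, and without NC2 it was 0.97.

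MYOT encodes myotilin, which binds alpha-actinin and filamin and bundles actin at the Z-disc. It read 2300 in NC1 and 2933 in NC2, 2857 in MR1 and 3251 in MR2, and 1848 in MRV1 and 1572 in MRV2. The NC and MR arrays overlapped, whereas both MRV arrays lay below the other 4. The means were 2617 ± 448 in NC, 3054 ± 279 in MR and 1710 ± 195 in MRV, and the change from MR to MRV was -44.0%. The log2 difference between MRV and MR was -0.83 (SE 0.17), and 0.938% of all probe sets tested had a value this low or lower. Between MR and NC it was 0.23 (SE 0.17), a size close to its error, and it was 0.055 without NC1 and 0.40 without NC2.

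FHL1 encodes a LIM-only protein that sits at the sarcomere and takes part in the response to stretch. It read 9944 in NC1 and 12171 in NC2, 13581 in MR1 and 13183 in MR2, and 6866 in MRV1 and 7073 in MRV2. The arrays within MR and within MRV lay close together, with a coefficient of variation of 2.10% in MR and 2.11% in MRV against 14.2% in NC. MR lay above both NC arrays and MRV below them. The means were 11058 ± 1574, 13382 ± 281 and 6969 ± 147, so MR was 1.92 times MRV. The log2 difference was -0.94 (SE 0.13) between MRV and MR, where 0.674% of probe sets were this low or lower, and 0.28 (SE 0.13) between MR and NC. The difference between MR and NC was 0.14 without NC1 and 0.43 without NC2.

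FHL2, the close relative of FHL1 that acts as an adaptor and as a coregulator of transcription in heart muscle, showed no separation of groups. It read 5416 in NC1 and 4599 in NC2, 3999 in MR1 and 4717 in MR2, and 4924 in MRV1 and 3648 in MRV2. The arrays of a group spread over a coefficient of variation of 11.5% in NC, 11.6% in MR and 21.0% in MRV, and every pair of groups overlapped around means of 5007, 4358 and 4286. Its differences on the log2 scale were -0.20 (SE 0.19) for MR minus NC and -0.035 (SE 0.19) for MRV minus MR, and the latter turned to 0.084 without MR2 and to 0.18 without MRV2. The pattern of FHL1, high in MR and low in MRV, was thus not visible in the intensities of FHL2, although the difference between the genes was not tested.

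XIRP1 encodes an actin-binding repeat protein of the cell-to-cell junctions of heart muscle. It read 1782 in NC1 and 1915 in NC2, 1428 in MR1 and 1557 in MR2, and 1090 in MRV1 and 1132 in MRV2. The 3 groups did not overlap and stood in the order NC, MR, MRV from high to low, unlike NEBL, MYOT, FHL1 and DES, whose mean was highest in MR. The means were 1849 ± 94.3, 1493 ± 91.3 and 1111 ± 29.6. The log2 difference was -0.31 (SE 0.11) for MR minus NC and -0.42 (SE 0.11) for MRV minus MR. Without NC1 the former was -0.36, and without NC2 it was -0.25.

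DES encodes desmin, the muscle intermediate filament protein. Its bright probe set read 8866 in NC1 and 8556 in NC2, 9231 in MR1 and 8932 in MR2, and 7703 in MRV1 and 8376 in MRV2. The groups did not overlap, but the nearest NC and MR arrays were 8866 and 8932, a smaller gap than that between the arrays of either group. The nearest MRV and NC arrays, 8376 and 8556, were likewise closer than the arrays within MRV or within NC. The means of 8711 ± 219, 9081 ± 211 and 8039 ± 475 gave log2 differences of 0.060 (SE 0.10) for MR minus NC and -0.18 (SE 0.10) for MRV minus MR. The other DES probe set read 110.8 in NC1 and 15 in NC2, 23.1 in MR1 and 37.3 in MR2, and 10.7 in MRV1 and 11.1 in MRV2, lay below the filter at a mean of 34.7, and was not tested.

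**Figure D2:**
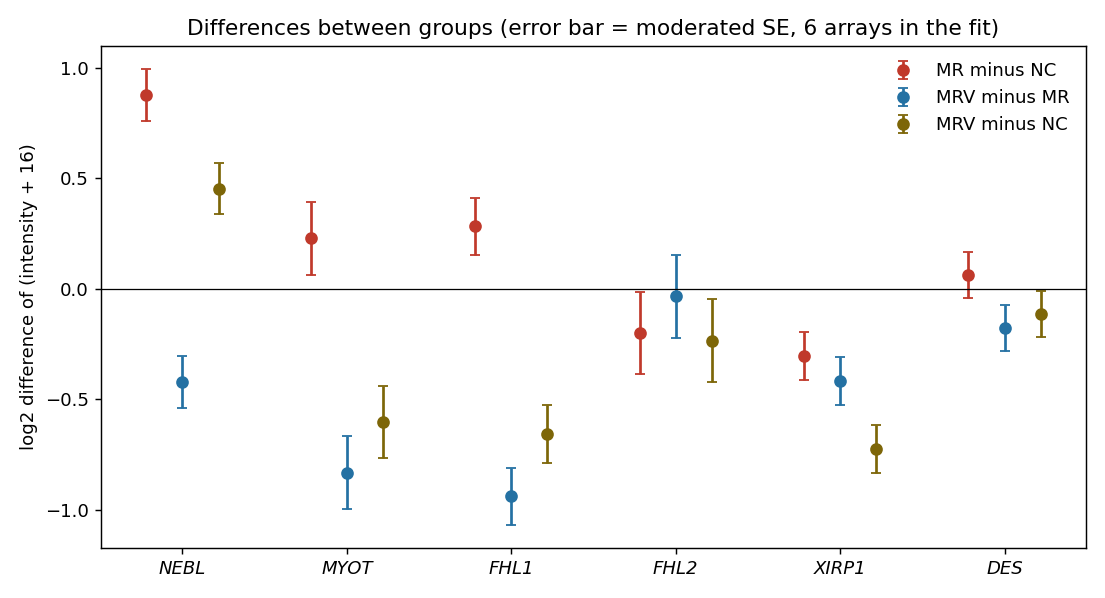
Log2 differences of (intensity + 16) for the 6 tested probe sets in each of the 3 comparisons; points are fitted differences and bars are 1 moderated SE either way. NEBL stands at 0.88 in MR minus NC, FHL1 and MYOT stand at -0.94 and -0.83 in MRV minus MR, and the bar of FHL2 spans 0 in MRV minus MR.

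Counted over the 6 tested probe sets, 0 passed an adjusted p of 0.05 in MR minus NC, where 0.00694% of all 14400 probe sets did (limma, Benjamini-Hochberg over all of them). In the same comparison 2 members had an unadjusted p under 0.05, against 579 probe sets in all. Arrays of MR and NC did not overlap for 4 of the 6, with 3 higher in MR (NEBL, FHL1 and DES) and 1 lower (XIRP1), where 26.8% of all probe sets showed no overlap. In MRV minus MR, 0 members and 0% of probe sets passed, with 4 members and 1048 probe sets at an unadjusted p under 0.05. No overlap was seen there for 5 of the 6, all lower in MRV, against 42.4% of all probe sets. At least 2-fold ratios of group means without overlap were reached by 0 members in MR minus NC and by 0 in MRV minus MR, where 0.562% and 1.35% of probe sets reached them. The members were picked from these comparisons, so nothing is read from these counts. Without NC1 the number of members without overlap in MR minus NC stayed at 4, while the share over all probe sets was 68.8% with 1 array fewer.

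The comparison of MRV with NC asks how atria with regurgitation under valsartan stand against controls. It shares the NC and MRV arrays with the comparisons above and is their sum, so the choice of the genes bears on it too, and its values are a description with no independent test. XIRP1 differed by -0.73 on the log2 scale (SE 0.11), lower in both MRV arrays than in either NC array and 0.601 times the NC mean. FHL1 differed by -0.66 (SE 0.13), a mean 0.630 times that of NC, and MYOT by -0.60 (SE 0.17), 0.653 times NC. NEBL was higher in MRV by 0.45 (SE 0.12). FHL2 differed by -0.23 (SE 0.19) and DES by -0.12 (SE 0.10). By limma with Benjamini-Hochberg adjustment over all probe sets, 0 of 6 members and 0% of the probe sets passed, with 4 members and 762 probe sets at an unadjusted p under 0.05. No overlap was seen for 5 of the 6 members, 1 higher and 4 lower in MRV, against 33.2% of all probe sets, and 0 members against 0.764% of probe sets were at least 2-fold apart without overlap. As before, nothing is read from these counts. Without NC1 the differences of XIRP1, FHL1, MYOT and NEBL were -0.78, -0.80, -0.78 and 0.36, and without NC2 they were -0.67, -0.51, -0.43 and 0.55. FHL2 rested on single arrays, at -0.45 without MRV1, -0.019 without MRV2, -0.12 without NC1 and -0.35 without NC2, and DES stood at -0.056 without MRV1 and -0.18 without MRV2.

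In the order of group means, NEBL ran NC, MRV, MR from low to high with every neighbouring pair apart. FHL1 ran MRV, NC, MR with every neighbouring pair apart, and so did DES, although the NC and MR means of DES differed by less than its SE on the log2 scale. LMCD1, CRYAB, MYL3 and TPM1, genes of the lists compared below, ran in this order too, with every pair apart. MYOT also ran MRV, NC, MR, and its NC and MR arrays overlapped. XIRP1 ran MRV, MR, NC with all pairs apart, and FHL2 ran MRV, MR, NC with all pairs overlapping. Over all probe sets tested, 26.8% were apart in MR minus NC, 42.4% in MRV minus MR and 33.2% in MRV minus NC. The share with all 3 groups apart was not counted, and nothing is read from these orders.

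Among themselves the 6 genes did not follow 1 common pattern over the 6 arrays. MYOT and FHL1 were the closest pair (Pearson r = 0.96 on log2 values, 6 arrays that share the group structure, given as a description), and FHL1 and DES followed at r = 0.84. XIRP1 correlated with MYOT and FHL1 at r = 0.74 each and with DES at r = 0.60, and all of these genes were lowest in both MRV arrays. NEBL had r = 0.29 with MYOT and with FHL1 and r = -0.40 with XIRP1, and FHL2 had r = 0.085 with FHL1.

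The values of the members were also set against muscle content as far as the array allows. On each array the median log2 value over 11 thin and thick filament genes, such as cardiac actin and the troponins, was subtracted. Relative to that median, NEBL differed by 0.75 in MR minus NC, and FHL1, MYOT, XIRP1 and NEBL differed by -0.84, -0.74, -0.32 and -0.33 in MRV minus MR. DES differed by -0.065 and -0.080 in these comparisons, and FHL2 by -0.32 and 0.062. The sign of DES in MR minus NC and that of FHL2 in MRV minus MR were thus opposite to those without the subtraction, but this depended on how the filament level was taken. The median over genes on each array, which can be a different gene on each array, shifted by 0.12 and -0.097 in these comparisons, whereas the median of the differences of the single genes was 0.018 and -0.034. Relative to the latter, DES differed by 0.042 in MR minus NC and FHL2 by -0.0014 in MRV minus MR, and neither sign turned. These ratios show unequal differences within an array and do not say which gene moved.

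Of the other Z-disc genes listed (28, of which 14 had a probe set with a single symbol and 13 were tested), 0 passed in any of the 3 comparisons. In MR minus NC 11 were higher and 2 lower with a median log2 difference of 0.13, where 2843 of all 5408 genes tested were higher. In MRV minus MR 3 were higher and 10 lower with a median of -0.19, where 3116 of all genes were lower. The medians over all genes were 0.0076 and -0.031. No overlap was seen for 53.8% of the 13 in each comparison, against 28.2% and 43.7% of all genes. Summed over the 14 measured, intensity was 67026 in NC1 and 79741 in NC2, and 85758 in MR1 and 80091 in MR2. In MRV1 and MRV2 it was 75824 and 74889, and NC2 thus lay close to MR2. XIRP2, the paralogue of XIRP1, read 467 in NC1 and 1587 in NC2, 3218 in MR1 and 2400 in MR2, and 1499 in MRV1 and 1175 in MRV2. Both MR arrays of XIRP2 lay above the others, and XIRP1 was lower in MR than in NC. The log2 differences of XIRP2 were 1.67 (SE 0.54) in MR minus NC and -1.06 (SE 0.54) in MRV minus MR. NEB, nebulin, read 171 in NC1 and 480 in NC2, 861 in MR1 and 242 in MR2, and 295 in MRV1 and 186 in MRV2, with overlap of every pair of groups and log2 differences of 0.64 and -0.92 (SE 0.69), so that nebulin did not show the separation seen for nebulette. At the other end, CAPZB, a subunit of the protein that caps actin filaments, and TTN, titin, differed by -0.041 and -0.044 in MR minus NC. In MRV minus MR the highest values of the list were those of CAPZB at 0.24 and of CMYA5, a costamere protein gene, at 0.10.

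Of the other LIM protein genes (41 listed, 18 with a probe set, 16 tested), 0 passed, and 8 were higher and 8 lower in both MR minus NC (median -0.0025) and MRV minus MR (median -0.041). PDLIM1, which carries a PDZ and a LIM domain and binds alpha-actinin, read 913 in NC1 and 1195 in NC2, 1691 in MR1 and 1857 in MR2, and 785 in MRV1 and 1108 in MRV2. Its MR arrays lay above all others, as those of FHL1 did, with log2 differences of 0.75 (SE 0.21) and -0.91 (SE 0.21). LMCD1, a LIM protein of heart muscle, differed by 0.32 in MR minus NC and by -0.44 (SE 0.11) in MRV minus MR. It read 348 in NC1 and 322 in NC2, 401 in MR1 and 441 in MR2, and 299 in MRV1 and 313 in MRV2. Its groups ran in the order of those of FHL1, with every pair apart. The lowest values in MR minus NC were those of PDLIM4 at -0.45 and of FHL3, a further gene of the FHL family, at -0.44. In MRV minus MR, LMO2 stood at -0.51, CSRP1 at 0.22 and ABLIM1, an actin-binding LIM protein gene, at 0.14.

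**Figure D3:**
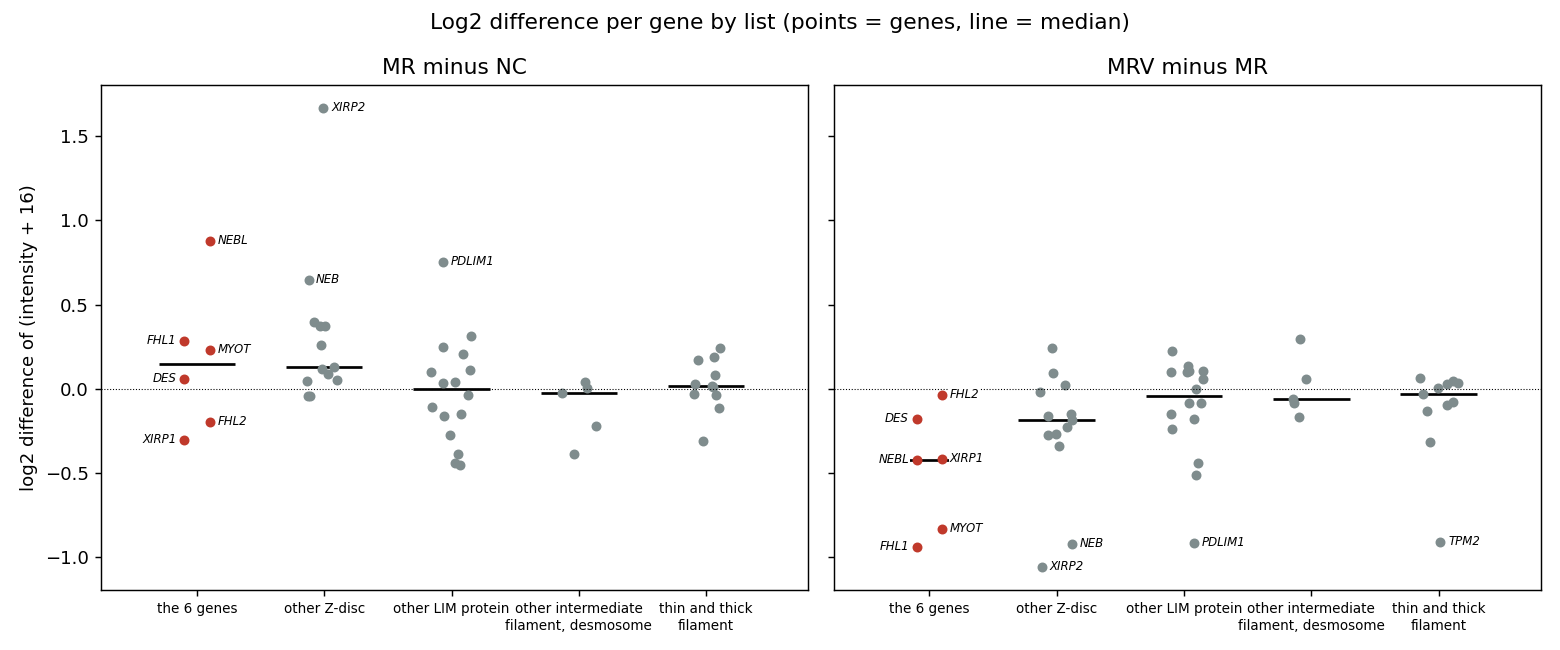
Log2 difference of (intensity + 16) for each tested gene of 5 lists in MR minus NC (left) and MRV minus MR (right); points are genes, horizontal lines are list medians, and genes beyond 0.6 either way and all 6 members are named. XIRP2 at 1.67 and NEBL at 0.88 are the highest points on the left, and XIRP2 at -1.06 and FHL1 at -0.94 are the lowest on the right.

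The intermediate filament and desmosome genes other than DES (16 listed, 9 with a probe set, 5 tested) had medians of -0.025 in MR minus NC and -0.059 in MRV minus MR, and 0 passed. SYNM, synemin, which assembles with desmin, read 4275 in NC1 and 3370 in NC2, 2909 in MR1 and 2888 in MR2, and 3457 in MRV1 and 2633 in MRV2, a log2 difference of -0.39 in MR minus NC with no overlap. The desmosome genes JUP and DSP differed by -0.22 and 0.042 in MR minus NC and by 0.30 and -0.17 in MRV minus MR, where SYNM differed by 0.058. VIM, vimentin, differed by 0.0059 in MR minus NC, and the lamin gene LMNA by -0.087 in MRV minus MR.

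The thin and thick filament genes (17 listed, 12 with a probe set, 11 tested) had medians of 0.018 in MR minus NC, with 7 higher and 4 lower, and -0.034 in MRV minus MR, with 5 higher and 6 lower, and 0 passed. Their summed intensity ranged from 133803 to 140549 in NC, from 140535 to 141016 in MR and from 132977 to 137646 in MRV. TPM2, beta-tropomyosin, read 2580 in NC1 and 1909 in NC2, 2917 in MR1 and 2198 in MR2, and 1412 in MRV1 and 1272 in MRV2, and its log2 difference of -0.91 (SE 0.20) in MRV minus MR was close to those of FHL1 and MYOT. MYL3, the ventricular essential light chain, differed by -0.32 in MRV minus MR. TNNC1, cardiac troponin C, differed by 0.24 in MR minus NC and TMOD1, which caps the slow-growing filament end, by -0.31, with TPM2 at 0.19 and TPM3 at -0.11 next to them, while ACTC1, cardiac actin, and TMOD1 differed by 0.048 and 0.062 in MRV minus MR.

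Some markers of other muscle types were highest in MR, as were the means of FHL1, MYOT and NEBL. MYL2, given above, and TNNT1, slow skeletal troponin T, at 497 in NC1 and 996 in NC2, 2421 in MR1 and 2724 in MR2, and 323 in MRV1 and 957 in MRV2, were highest in both MR arrays. Of the 4 ventricular markers tested, 4 were higher in MR than in NC, where 2843 of all 5408 genes were. In MRV minus MR 4 were lower, where 3116 of all genes were. MYH7 (0.018 and -0.034) and HEY2 (0.16 and -0.023) overlapped between the groups in both comparisons. The 4 skeletal or slow muscle markers tested, of 7 listed, split 2 and 2 in MR minus NC, with TNNT1 the highest at 1.84. TNNI1 and TNNI2 overlapped between these groups, at 0.11 and -0.064. CKM, muscle creatine kinase, was lowest in both MR arrays, at 11141 in MR1 and 10237 in MR2. It read 12155 in NC1 and 12208 in NC2, and 11629 in MRV1 and 11287.5 in MRV2. In MRV minus MR the 4 markers split 1 higher, CKM, to 3 lower. The 3 nerve and glia markers tested of 5 listed were all higher in MR and all lower in MRV, with summed intensities of 1713 in NC1 and 2933 in NC2, 2963 in MR1 and 2673 in MR2, and 1085 in MRV1 and 1784 in MRV2. UCHL1, a neuronal hydrolase gene that was singled out after its values were seen, made up most of this sum, at 1122 in NC1 and 2384 in NC2, 2277 in MR1 and 1998 in MR2, and 633 in MRV1 and 1186 in MRV2, a log2 difference of -1.28 in MRV minus MR. Of the smooth muscle, fibroblast, endothelial and adipocyte markers, 4 tested in each list, 1, 1, 2 and 0 were higher in MR than in NC and 2, 3, 0 and 3 were higher in MRV than in MR, and the 2 blood markers split 1 and 1 in MR minus NC and were both lower in MRV than in MR. Among the smooth muscle markers, CNN1 (calponin) and TAGLN (transgelin), also singled out after their values were seen, were lowest in both MRV arrays. FHL1, MYOT, XIRP1 and DES were lowest there too. CNN1 read 976 in NC1 and 892 in NC2, 902 in MR1 and 806 in MR2, and 490 in MRV1 and 527 in MRV2, with log2 differences of -0.73 in MRV minus MR and -0.86 in MRV minus NC. TAGLN differed by -0.41 and -0.34, while the other smooth muscle markers ACTA2 and SMTN differed by 0.017 and 0.23 in MRV minus MR. The sum over the 4 smooth muscle markers ranged from 6657 to 7742 in NC, from 6306 to 6651 in MR and from 6300 to 6432 in MRV. In these marker lists 0 genes passed the test in any comparison (limma). The part of these tissues in the values of the members was not tested. MYL2 was far higher in MR1 than in MR2 and higher in both than in either NC array, and its relation to the members was not tested either. When the 3' to 5' ratio of the first actin pair was added to the fit, the differences in MRV minus MR were -1.02 for FHL1, -1.20 for MYOT, -0.61 for NEBL, -0.48 for XIRP1, -0.30 for FHL2 and -0.059 for DES. Their SE ranged from 0.17 (DES) to 0.29 (FHL2), against 0.10 to 0.19 for the same genes without the ratio. The ratio was higher in both MRV arrays than in either MR array, so the fit cannot fully separate it from the group difference. No larger effect is read from these values. With the ratio of the second pair instead, the differences were -0.93, -0.81, -0.41, -0.42, -0.019 and -0.19 in the same order of genes.

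Genes whose profile over the 6 arrays was most like that of a member were taken from 1646 other genes with a range of at least 0.5 on the log2 scale, by Pearson r. With 6 arrays in 3 groups a high r is easily reached, and from 4 to 19 genes had an r of at least 0.95 with each member. The 3 nearest to FHL1 were SERPINB2, an inhibitor of plasminogen activators (r = 0.998), DDAH1, which breaks down methylated arginine (r = 0.988), and SMARCD3, a cardiac subunit of a chromatin remodelling complex (r = 0.987). SERPINB2 read 1095 in NC1 and 1395 in NC2, 1611 in MR1 and 1465 in MR2, and 753 in MRV1 and 768 in MRV2, which is the order of the 6 arrays seen for FHL1. SMARCD3 was also among the 3 nearest to MYOT (r = 0.967), beside AZIN1, a regulator of polyamine synthesis (r = 0.978), and BLOC1S1 (r = 0.957).

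For NEBL the nearest genes were OCIAD2 (r = 0.983), PPIP5K2, an inositol pyrophosphate kinase gene (r = 0.972), and TTC8 (r = 0.964). OCIAD2 read 144 in NC1 and 158 in NC2, 259 in MR1 and 285 in MR2, and 204 in MRV1 and 177 in MRV2. FHL2 lay nearest to GSN, gelsolin, which severs actin filaments (r = 0.988), SAT1, a polyamine acetylating enzyme gene (r = 0.985), and HMGCS1, an enzyme gene of sterol synthesis (r = 0.969). GSN read 12804 in NC1 and 10877 in NC2, 8665 in MR1 and 10398 in MR2, and 11277 in MRV1 and 8021 in MRV2, so that, as in FHL2, replicates of a group differed as much as groups did. XIRP1 lay nearest to ERMP1 (r = 0.977), TMEM44 (r = 0.970) and OXNAD1 (r = 0.962), and DES to FAM69B (r = 0.995), MXRA7 (r = 0.992) and AKIRIN2 (r = 0.985). MXRA7 ranged from 364 in MRV1 to 766 in MR1, a log2 range of 1.04, far wider than that of DES.

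**Figure D4:**
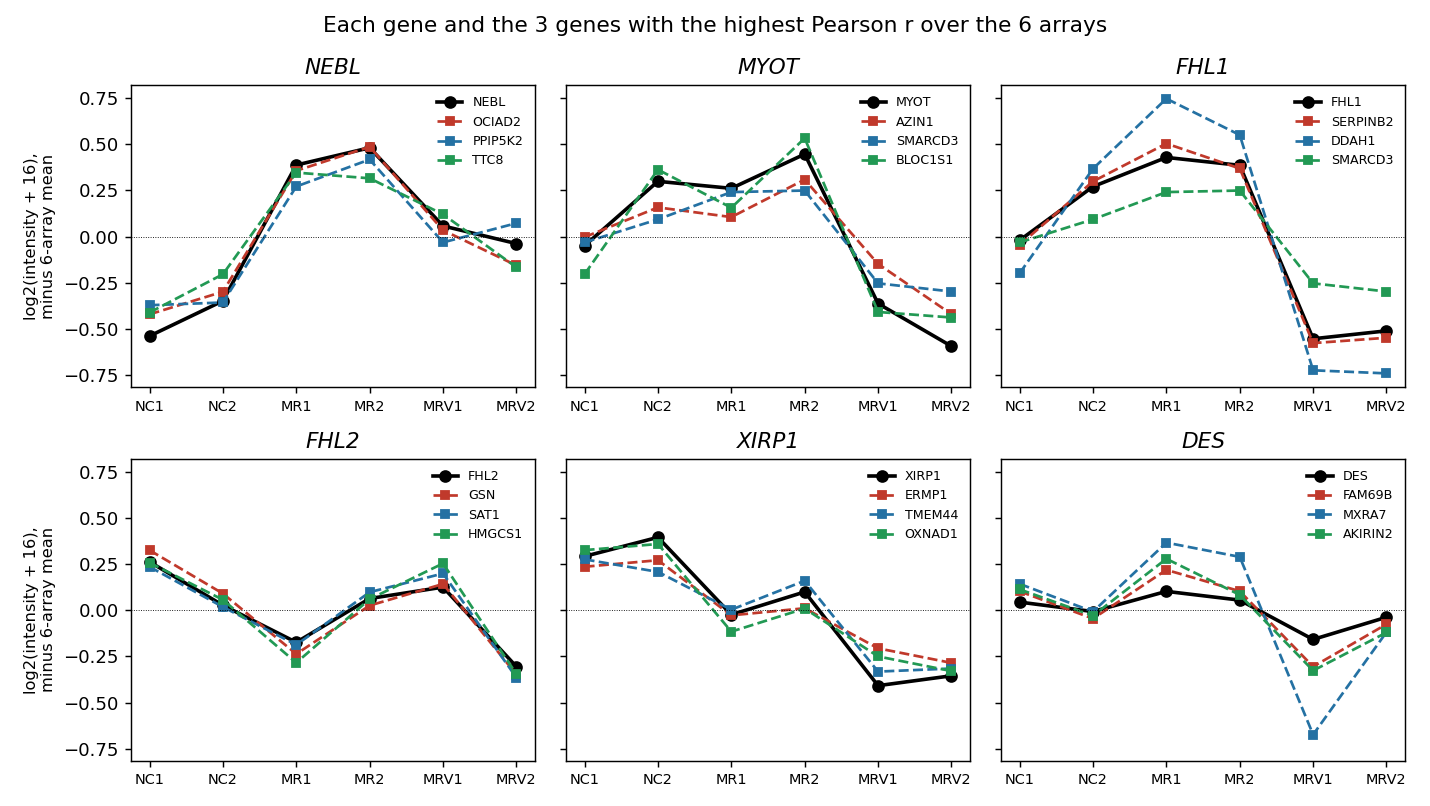
Log2(intensity + 16) minus its mean over the 6 arrays, by array, for each of the 6 genes (black) and the 3 genes with the highest Pearson r with it (coloured). FHL1, MYOT, XIRP1, DES and SMARCD3 are lowest in both MRV arrays. NEBL is lowest in both NC arrays, and FHL2 and GSN vary as much within groups as between them.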

How the data were processed

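Total RNA from left atrium was hybridised to 1 array per pig. Each probe set has 1 deposited intensity for each array, on a linear scale from 4.8 to 27167. MAS5 and RMA appear in the submitters' processing notes, and the tool behind these values is not given in the sources. The deposited intensities have near-equal array medians and were not normalized again. The 124 control probe sets of 24123 were left out of tests. A symbol came from the platform annotation, which gave a single symbol to 10069 probe sets, several to 198 and none to 13732. Probe sets with a mean below the 40th percentile (61.4) were left out, which kept 14400.

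Log2(intensity + 16) was fitted by group on all 6 arrays (limma 3.58.1, functions lmFit and eBayes, run in R 4.3.3; 3 residual and 2.78 prior degrees of freedom), with Benjamini-Hochberg adjustment over all probe sets and a threshold of 0.05. The fit was tested on simulated data. A gene was represented by its brightest probe set. The members and lists were chosen with earlier results of these data known. All 7 member probe sets are given. From the Z-disc, LIM, intermediate filament and filament lists, the 2 highest and the 2 lowest genes of MR minus NC and of MRV minus MR are named (marker genes are named as examples), and for each member the 3 genes with the highest r. CRYAB and TPM1 are named in addition, for the order of their groups. Groups and replicate numbers came from the sample titles, and pairs of arrays hold animal and technical spread together. The number of arrays limits the precision. Alternatives were pseudocounts of 1 and 64, other filters, quantile normalization, single comparisons, a replicate block, either actin ratio as a covariate (the second added after seeing the data), an intensity trend and each array left out.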

Additional observations from a re-analysis of the deposited data

How the results depend on the processing

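No member passed the threshold in any of the 3 comparisons under any of the 16 alternatives, as in the values reported, with limma adjusted p-values from 0.163 to 1. Over the alternatives all differences kept their direction except that of FHL2 in MRV minus MR, which was -0.30 with the first actin ratio as a covariate, ranged from -0.25 to 0.18 over the arrays left out and was above 0 at 0.084 without MR2 and at 0.18 without MRV2. The number of members at least 2-fold apart without overlap in MR minus NC ranged from 0 to 1 when 1 array was left out, with NEBL as the 1 gene without NC2, and was 0 otherwise. The number without overlap, a count added with all its alternatives after the data had been seen, ranged from 4 to 6 in MR minus NC and from 5 to 6 in MRV minus MR and MRV minus NC. With 1 array left out fewer pairs of arrays can overlap, and the share over all probe sets was then 57.0% to 68.8%, 70.1% to 72.7% and 61.5% to 75.6% in these comparisons. With the replicate block 0 members passed in each comparison. Replicate numbers did not pair the arrays throughout: deviations of same-numbered arrays correlated at 0.34 between NC and MR, 0.20 between NC and MRV and 0.019 between MR and MRV, and 2 probe sets were called in MRV minus MR under the block against 0 without it. The mean of all tested probe sets of a gene was not run, since each member had 1 tested probe set. With 2 arrays a group, no difference of a member was resolved at the threshold, neither the larger ones nor small ones such as those of DES and FHL2.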
